A study of Mus musculus with 12 samples.

Results

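The receptor complex that recognises bacterial lipopolysaccharide (LPS) and the adaptors and kinases directly below it were followed here through airway macrophages (AMs) that met this same ligand. The 10 genes were Tlr4, Cd14, Ly96, Tirap, Myd88, Ticam2, Ticam1, Irak4, Irak1 and Traf6. They were taken by name from a table of 20551 genes, found through their Ensembl identifiers, and all 10 were among the 13729 genes that passed the filter on low counts and were tested.

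LPS is a component of the outer membrane of Gram-negative bacteria. CD14, a protein anchored in the cell membrane or shed in soluble form, takes up LPS and hands it to MD-2 (gene Ly96), a small protein that holds the lipid part of LPS and sits on the receptor TLR4. At the cell surface TLR4 engages TIRAP and MYD88, which assemble IRAK4 and IRAK1 and, through the ubiquitin ligase TRAF6, lead to NF-kappaB and MAP kinases. After the receptor is taken up into endosomes, a step that CD14 promotes, TICAM2 (also called TRAM) and TICAM1 (TRIF) lead to IRF3 and type I interferon. AMs live in the air spaces, where they are among the first immune cells to meet inhaled bacteria.

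RNA was sequenced from AMs of C57BL/6 mice, either WT or Scnn1b-Tg, at 6 weeks of age. The Scnn1b transgene is driven by a promoter of club cells in the airway epithelium, not of macrophages, and its carriers develop mucus obstruction of the airways. Cells from 3 to 4 animals were combined into a pool, and each pool was split into a culture with medium and a culture with 100 ng/ml LPS of Pseudomonas aeruginosa for 12 h. There were 3 WT pools (16, 17 and 18) and 3 Scnn1b-Tg pools (17, 18 and 19), which gave 12 libraries in 4 groups of 3, each genotype with medium and with LPS. WT 16, WT 17 and Tg 17 formed batch 1 and WT 18, Tg 18 and Tg 19 formed batch 2, a batch being a date of library preparation in the study's methods. The labels describe lavage cells that adhered to plastic, whereas the study's methods for sequencing describe cells sorted from lung tissue, so the isolation is not settled by these sources.

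The deposited counts summed to 48.2 to 60.9 M per library. All 12 alveolar macrophage markers were tested and present in every group, with summed levels of 9760 to 19400 counts per M counts (CPM, scaled with edgeR's TMM factors) over the 12 libraries. The summed markers of monocytes (8 listed) lay between 47.6 and 163 CPM, those of neutrophils (6 of 8 in the table) between 14.8 and 37.8 CPM, and those of T, NK and B cells (7 listed) at or below 1.32 CPM. Scnn1b averaged 0.251 to 0.385 CPM in the 4 groups, near the limit of detection in either genotype. In bulk RNA, fewer cells of a type and less RNA per cell cannot be told apart.

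After culture in medium, the macrophages held transcripts of all 10 genes, at unequal levels. To compare genes, levels were divided by the exon length of each gene (CPM per kb). In WT medium, Myd88 stood highest at 48.7 ± 1.92 CPM per kb (mean ± SD, n = 3, as for all group values here), followed by Cd14 at 33.1 ± 5.33 and Irak1 at 18.2 ± 0.718. Ly96 (10.4 ± 2.91), Irak4 (8.5 ± 0.561), Ticam2 (8.47 ± 0.972) and Tlr4 (8.22 ± 0.889) followed, and neighbours among these 4 overlapped in their libraries. Ticam1, Tirap and Traf6 were lowest, at 5.97 ± 0.506, 5.37 ± 0.577 and 4.31 ± 0.807 CPM per kb, again with overlap between neighbours. Per unit of length, the Myd88 transcript was thus far above that of Ticam1, whose ratio to Myd88 was 0.123 ± 0.00591 in WT medium and 0.133 ± 0.0102 in Scnn1b-Tg medium. The kinase transcripts kept a similar balance in all groups, with an Irak1 to Irak4 ratio that averaged between 1.98 and 2.14 in the 4 groups.

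LPS moved most of these transcripts, but not in a single direction. Each gene was tested with edgeR's quasi-likelihood test, with a term for the batch and Benjamini-Hochberg adjustment over all 13729 genes, and called at an adjusted p under 0.05. In WT cells 8 of the 10 genes were called, 5 higher and 3 lower, where 31.8% of all genes tested were called, 15.5% higher and 16.2% lower. In Scnn1b-Tg cells 7 were called, 4 higher and 3 lower, where 38.1% of all genes were called, 19.3% higher and 18.7% lower. The 10 genes were chosen with earlier results of these data known, so these shares are a description. Cd14, Myd88, Tirap and Ticam1 rose in both genotypes, Ticam2 and Irak1 fell in both, and Ly96 was called in neither. The libraries of medium and LPS did not overlap for 7 of the 10 genes in WT and for 7 in Scnn1b-Tg, where this held for 38.7% and 43.8% of all genes tested. The median log2 change over the 10 genes was 0.32 in WT and 0.37 in Scnn1b-Tg, beside medians of 0.003 and -0.015 over all genes tested. Markers of cell types moved with LPS as well, and their part in these changes was not tested. Of the 12 alveolar macrophage markers 10 were called in WT and 11 in Scnn1b-Tg, with sums of 13800 to 19400 CPM in medium and 9760 to 16600 CPM with LPS. Most of each sum was Chil3 (9970 ± 396 CPM in WT medium, SD, n = 3), and the members moved both ways: in WT the mean of Siglecf went from 115 to 11.1 CPM, that of Fabp4 from 235 to 25.4 CPM and that of Pparg from 122 to 28.9 CPM, while Marco went from 631 to 1250 CPM and Car4 from 16.9 to 47.3 CPM. The neutrophil markers went from 20.7 to 37.8 CPM down to 14.8 to 22.3 CPM, although S100a8 within that list had means of 2.86 CPM (WT) and 4.53 CPM (Scnn1b-Tg) in medium and of 7.32 and 11.1 CPM with LPS. The dendritic cell markers (4 of 6 in the table) summed to 0.754 to 1.29 CPM in medium and 2.06 to 3.57 CPM with LPS. Of 3 tested, 2 were called in each genotype, and the members moved both ways. Zbtb46, most of the sum with LPS, had medium means of 0.451 (WT) and 0.558 CPM (Scnn1b-Tg) and LPS means of 2.35 and 2.73 CPM. The means of Xcr1 and Flt3 also rose. Clec9a fell, with medium means of 0.348 (WT) and 0.367 CPM (Scnn1b-Tg) and LPS means of 0.02 and 0.0507 CPM. Of the monocyte markers, whose sum was mostly Fn1 (57.1 CPM in WT medium), 2 of 6 tested were called in WT and 4 in Scnn1b-Tg.

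**Figure D1:**
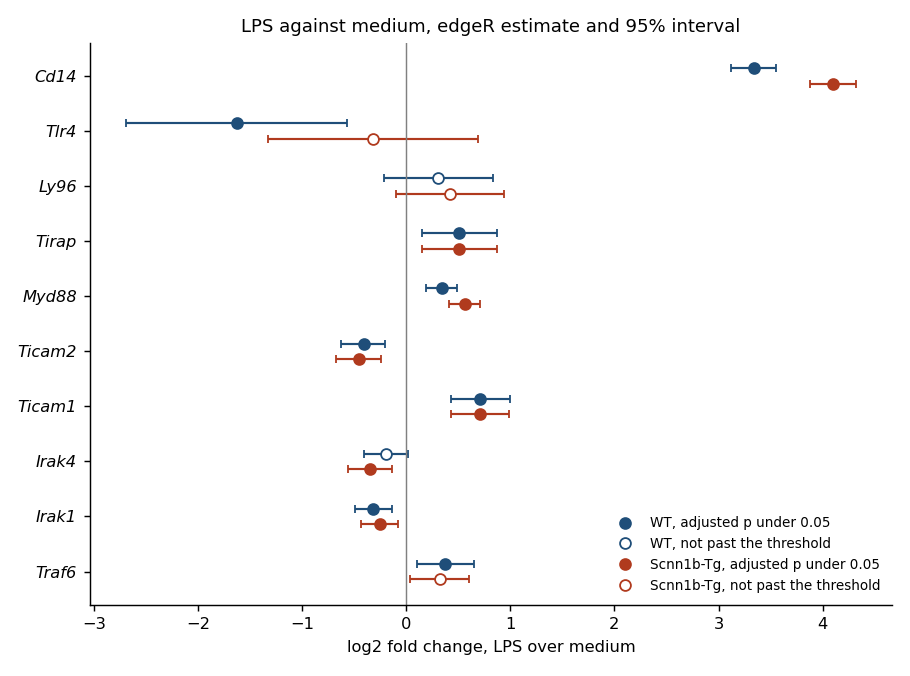
Log2 fold change of each gene in LPS over medium (x axis) in WT (blue) and Scnn1b-Tg (red) AMs, with 95% intervals from edgeR; filled points passed an adjusted p of 0.05. Cd14 lies at 3.34 and 4.10, the remaining genes that were called lie between -0.45 and 0.71, and the exception is Tlr4 in WT at -1.63 with an interval from -2.69 to -0.57.

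Cd14, the coreceptor that gathers LPS for the complex, had by far the largest rise among the 10 genes in both genotypes. The gene lies on chromosome 18 (36725067 to 36726798, minus strand, mm10, as are all positions here; GENCODE M21). In WT its level was 55.5, 49.3 and 67.4 CPM in medium (pools 16, 17 and 18) and 581, 561 and 584 CPM after LPS. In Scnn1b-Tg it was 32.1, 37.3 and 34.9 CPM in medium (pools 17, 18 and 19) and 509, 674 and 611 CPM after LPS. Every LPS library stood far above every medium library, and LPS libraries of both genotypes shared the same range. The log2 fold change was 3.34 ± 0.10 (SE) in WT, a 10.1-fold rise (adjusted p = 8.13e-09, edgeR), and 4.10 ± 0.10 in Scnn1b-Tg, a 17.1-fold rise (adjusted p = 1.73e-09, edgeR).

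With this rise, Cd14 went from rank 2964 to rank 224 of 13729 genes by mean CPM in WT, and from rank 4417 to rank 213 in Scnn1b-Tg. After LPS it was the most abundant of the 10 genes per kb, at 332 ± 7.24 CPM per kb in WT and 345 ± 48.1 in Scnn1b-Tg, and Myd88 came next at 61.4 ± 1.48 and 65.7 ± 3.30. The WT LPS libraries were the tightest set for Cd14, with a highest-to-lowest ratio of 1.04, a spread that 98% of 9101 genes with a mean of at least 5 CPM reached or exceeded.

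Cd14 was also the only gene of the 10 that edgeR called between the genotypes. Without LPS it was lower in Scnn1b-Tg, at 34.8 ± 2.62 CPM against 57.4 ± 9.23 CPM in WT, and the highest Scnn1b-Tg library (37.3 CPM) lay below the lowest WT library (49.3 CPM). The difference was -0.79 ± 0.09 on the log2 scale (adjusted p = 0.00975, edgeR), with -0.70 within batch 1 and -0.90 within batch 2. It was 1 of the 10 genes, where 0.335% of all genes tested were called (0.168% lower), and it held rank 4 of 13729 by p. The call was lost without the WT medium 18 library (adjusted p = 0.0574), without Tg medium 17 (adjusted p = 0.115), without Tg medium 19 (adjusted p = 0.0567) and without the batch term (adjusted p = 0.0555), with log2 differences of -0.73, -0.82, -0.76 and -0.72.

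The sums of several marker lists also lay apart between the medium groups, and their part in the Cd14 difference was not tested. The 7 epithelial markers summed to 85.8 to 109 CPM in WT medium and 41.8 to 73.4 CPM in Scnn1b-Tg medium, of which Scgb1a1, the club cell secretory protein, made up 54.3 ± 18.9 and 19.5 ± 8.27 CPM. The neutrophil markers summed to 20.7 to 24.2 and 27.3 to 37.8 CPM, and the alveolar macrophage markers to 13800 to 14700 and 16200 to 19400 CPM. The monocyte markers summed to 47.6 to 77.9 and 59.2 to 116 CPM, ranges that overlap. No marker of these lists was called between the genotypes by edgeR.

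After LPS the Cd14 levels of the genotypes overlapped, with a difference of -0.03 ± 0.09 on the log2 scale and a 95% interval from -0.23 to 0.17 (adjusted p = 1, edgeR). Pool by pool, the log2 rise with LPS ran from 3.11 to 3.51 for WT and from 3.99 to 4.17 for Scnn1b-Tg, so the pools of the genotypes did not overlap in their response. How many of all genes tested had pool responses apart in this way was not counted, so the separation is only a description. The difference of the responses (the interaction) was 0.76 ± 0.13 on the log2 scale. It had an unadjusted p of 9.18e-05, rank 3 of 13729, and an adjusted p of 0.271 in edgeR, and so was not called. With DESeq2 on the same design the adjusted p was 0.000134, a test that called 77 genes where edgeR called 0. The interaction uses the same medium libraries as the genotype difference above, so these are not separate measurements.

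**Figure D2:**
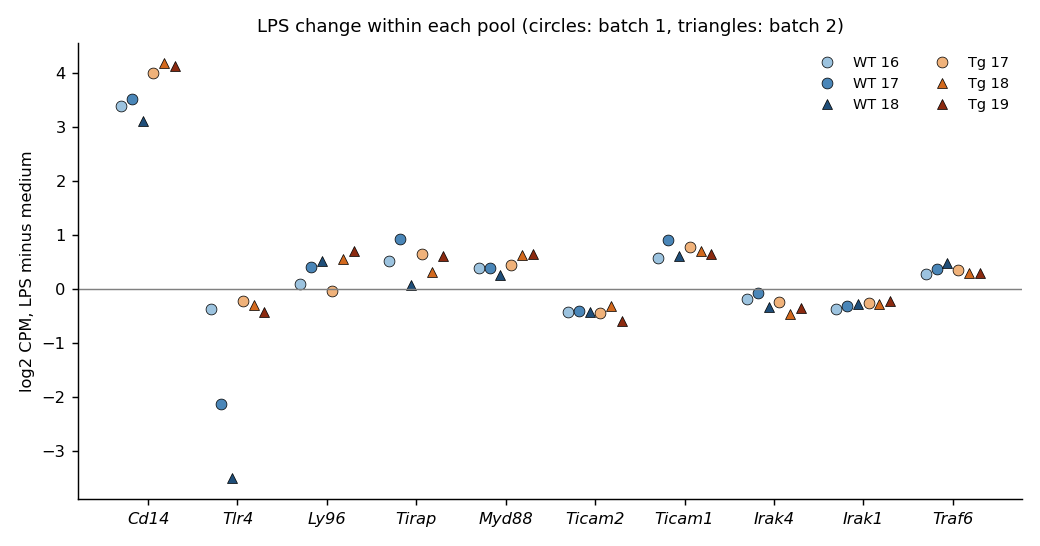
Change with LPS within each of the 6 pools (y axis, log2 CPM in LPS minus log2 CPM in medium) for each gene, with WT pools in blue and Scnn1b-Tg pools in orange to brown. The Scnn1b-Tg pools lie above the WT pools for Cd14 (3.99 to 4.17 against 3.11 to 3.51) and Myd88 (0.44 to 0.64 against 0.25 to 0.38), and Tlr4 falls by 2.12 and 3.50 in WT 17 and WT 18 and by 0.22 to 0.42 in the other 4 pools. The share of all genes whose pools separate in this way was not counted, and no interaction was called by edgeR.

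Tlr4, the signalling receptor itself, was steady in 3 of the 4 groups and erratic in WT cells after LPS. The gene lies on chromosome 4 (66827584 to 66930284, plus strand) and shares no exon with another annotated gene. In WT its level was 45.3, 50.8 and 40.9 CPM in medium and 34.8, 11.6 and 3.57 CPM after LPS, which stand for 1742, 670 and 189 deposited counts in LPS pools 16, 17 and 18. In Scnn1b-Tg it was 50.8, 39.5 and 43.6 CPM in medium and 43.6, 32.4 and 32.6 CPM after LPS. All 3 WT LPS libraries were below all WT medium libraries, but they differed 9.75-fold among themselves, whereas the highest-to-lowest ratio was 1.24 to 1.35 in the other 3 groups. A spread of 9.75-fold or more among the WT LPS libraries was held by 18 of 9101 genes with a mean of at least 5 CPM, or 0.198%.

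The log2 change of Tlr4 with LPS was -1.63 ± 0.48 in WT (adjusted p = 0.0238, edgeR), a level 3.10-fold lower, and -0.32 ± 0.46 in Scnn1b-Tg (adjusted p = 0.63, edgeR). Within pools it fell in all 6, by 0.38, 2.12 and 3.50 in WT 16, 17 and 18 and by 0.22, 0.29 and 0.42 in Tg 17, 18 and 19. The fall in WT 16 lay within the range of the Scnn1b-Tg pools, and those in WT 17 and WT 18 lay far outside it. Without both WT LPS 17 and WT LPS 18, an alternative chosen after these values were seen, the fall was -0.49 in WT (adjusted p = 0.0265, edgeR) and -0.31 in Scnn1b-Tg (adjusted p = 0.0194, edgeR). In that fit WT LPS is a single library that is assumed to vary like the other groups. With only the Scnn1b-Tg libraries in the fit the Scnn1b-Tg fall was called as well (-0.30, adjusted p = 0.0209, edgeR).

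The WT call of Tlr4 was lost without WT medium 17 (-1.68, adjusted p = 0.0502), without WT medium 18 (-1.38, adjusted p = 0.0876), without WT LPS 17 (-1.39, adjusted p = 0.0754), without the batch term (-1.46, adjusted p = 0.0669) and with only the libraries compared (-1.69, adjusted p = 0.0763), and the value was -1.08 without WT LPS 18 (adjusted p = 0.0483, edgeR) and -2.59 without WT LPS 16 (adjusted p = 7.82e-05, edgeR). After LPS Tlr4 was 1.52 ± 0.51 higher in Scnn1b-Tg on the log2 scale, with libraries that overlapped and an adjusted p of 0.476 in edgeR. This difference was called when WT LPS 16 was left out (2.43, adjusted p = 0.0244, edgeR) and stood at 0.84 without WT LPS 18 and at 0.26 without both WT LPS 17 and 18. The Tlr4 values after LPS therefore rest on 2 WT libraries, and why those libraries were low was not tested.

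The gene whose pattern came closest to that of Tlr4 over the 12 libraries was Bcap29 (Pearson r of log2 CPM 0.908), followed by Nrros (0.888) and B3glct (0.867). These values describe 12 libraries that share treatments and pools. Within medium alone r with Tlr4 was 0.72 for Bcap29, -0.01 for Nrros and -0.49 for B3glct. Within LPS alone it was 0.91, 0.88 and 0.88. Nrros encodes a membrane protein of myeloid cells that is known to restrain Toll-like receptor signalling. It stood at 150 and 155 CPM in WT LPS 16 and 17 and at 8.27 CPM in WT LPS 18, with 146 to 236 CPM in the 9 libraries of the other groups. Gemin4 and Sla2, picked after their values were seen from the 18 genes with such a spread, were likewise low in WT LPS 18, at 0.132 and 0.113 CPM against 23.3 and 22.9 and 5.23 and 8.86 CPM in WT LPS 16 and 17. In WT LPS 18, then, Tlr4 shared a low value with Nrros, Gemin4 and Sla2, while in WT LPS 17 these 3 genes were not low. Other genes among the 18 were low in both WT LPS 17 and 18. Gm26825 stood at 121, 0 and 2.3 CPM in WT LPS 16, 17 and 18, and Cd63-ps at 186, 0.642 and 24.6 CPM. Further genes among the 18 were low in WT LPS 16, such as Bpifa1 (0, 14.6 and 12.1 CPM) and Gm21982 (0.02, 22.7 and 19.9 CPM). Low values among the 18 genes were thus not confined to WT LPS 17 and 18.

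**Figure D3:**
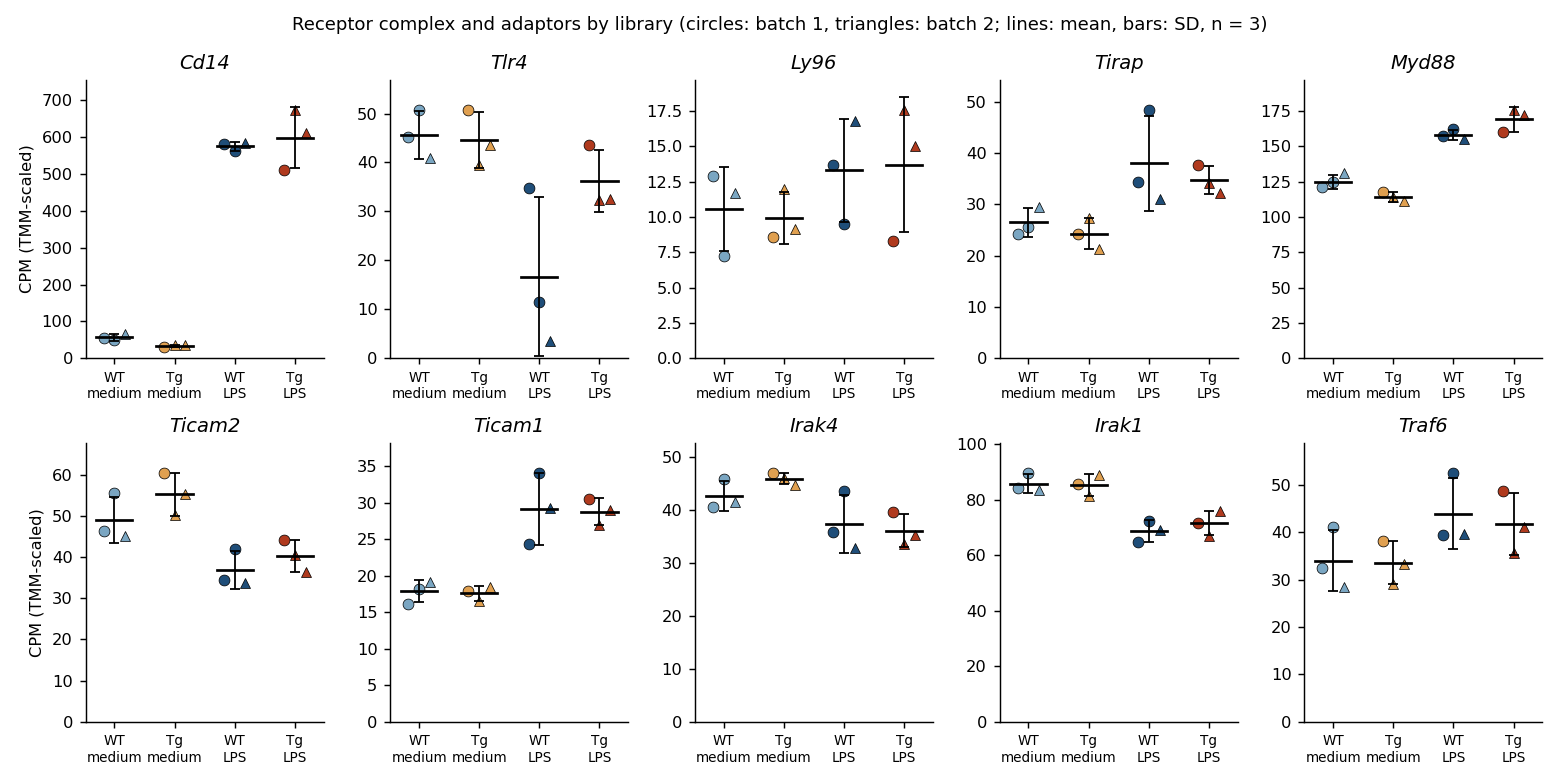
Level of each of the 10 genes in every library (y axis, CPM after TMM scaling, from 0), by group, with the mean as a line and the SD as a bar (n = 3 per group); circles are batch 1 and triangles batch 2. Cd14 separates LPS from medium with no overlap, and Tlr4 is spread from 3.57 to 34.8 CPM in WT LPS alone.

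Ly96, which encodes the LPS-binding partner MD-2 on chromosome 1 (16688051 to 16709611, plus strand), did not follow Cd14. In WT it was 12.9, 7.21 and 11.7 CPM in medium and 13.7, 9.52 and 16.8 CPM after LPS, and in Scnn1b-Tg 8.59, 12.0 and 9.17 CPM in medium and 8.33, 17.6 and 15 CPM after LPS. Medium and LPS libraries overlapped in both genotypes, and 5 of 6 pools were higher with LPS. The change on the log2 scale was 0.31 ± 0.24 for WT and 0.42 ± 0.24 for Scnn1b-Tg (adjusted p = 0.37 and 0.193, edgeR), with 95% intervals from -0.21 to 0.83 and from -0.10 to 0.94, which leave room for a rise of up to that size.

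The coreceptor transcript thus outgrew that of its partner. Per kb, the ratio of Cd14 to Ly96 was 3.33 ± 0.745 in WT medium and 26.8 ± 7.25 after LPS, and 2.09 ± 0.225 and 27.5 ± 7.40 in Scnn1b-Tg. The ratios are a description, with no test. Ly96 was among the more variable genes, with a highest-to-lowest ratio of 2.11 in Scnn1b-Tg LPS, where 3.09% of genes varied as much. Its closest matches over the 12 libraries were Rbm8a (r = 0.965), Tmem128 (0.962) and Rpl17 (0.955), a protein of the exon junction complex, a membrane protein and a ribosomal protein. Like Ly96 these were lower in Tg LPS 17 (48.7, 31.0 and 74.0 CPM) than in Tg LPS 18 (65.8, 57.1 and 120 CPM). In WT LPS and in both Scnn1b-Tg groups, each Ly96 value of batch 2 was above each value of batch 1. In WT medium, Ly96 was 12.9 and 7.21 CPM in pools 16 and 17 of batch 1 and 11.7 CPM in pool 18 of batch 2. The part of the batch in this spread was not tested.

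The 4 adaptors with a TIR domain, through which they dock on the receptor, did not move together. Tirap, Myd88 and Ticam1 rose with LPS and Ticam2 fell, in all 6 pools in each case. Myd88, the adaptor shared with most Toll-like receptors and the IL-1 receptor family (chromosome 9, 119335934 to 119341411, minus strand), rose from 121, 125 and 131 CPM to 157, 162 and 155 CPM in WT and from 118, 114 and 111 CPM to 160, 176 and 172 CPM in Scnn1b-Tg. The rise was small next to Cd14 but larger than the spread between libraries, at 0.34 ± 0.07 in WT (adjusted p = 0.00288, edgeR) and 0.56 ± 0.07 in Scnn1b-Tg (adjusted p = 6.05e-05, edgeR) on the log2 scale. It was called under all 23 alternatives in both genotypes.

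Like Cd14, Myd88 rose more in each Scnn1b-Tg pool (0.44 to 0.64) than in any WT pool (0.25 to 0.38). Here too the share of all genes with such a separation of pools was not counted. The interaction was 0.23 ± 0.10 on the log2 scale with an unadjusted p of 0.0377, and it was not called (adjusted p = 0.805, edgeR). Within batch 1 it was 0.06 and within batch 2 it was 0.38. In medium the Scnn1b-Tg libraries were all below the WT libraries for Myd88, as for Cd14, by 0.14 on the log2 scale (adjusted p = 0.427, edgeR), a separation that 18.4% of all genes tested showed in this comparison. The closest matches to Myd88 were Rcl1 (r = 0.986), Rab20 (0.98) and Anxa7 (0.98), and those to Cd14 were Pilra, Acod1 and Dusp1 (0.995 each). These values span medium and LPS together. With Cd14, r within LPS alone was 0.62 for Pilra, -0.19 for Acod1 and 0.86 for Dusp1. Within medium alone it was 0.90, 0.85 and 0.89. With Myd88, r was 0.63 to 0.89 within LPS alone and 0.79 to 0.87 within medium alone. Acod1, which makes the antimicrobial metabolite itaconate in activated macrophages, went from 43.6 to 69.1 CPM in WT medium and 29.5 to 30.9 CPM in Scnn1b-Tg medium to 3580 to 4580 CPM over all LPS libraries.

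Ticam1 and Tirap rose by similar amounts in both genotypes. Ticam1, the adaptor of the interferon branch (chromosome 17, 56269319 to 56276786, minus strand), was 16.2, 18.2 and 19.2 CPM in WT medium and 24.3, 34.1 and 29.3 CPM in WT LPS, and 17.9, 16.5 and 18.5 CPM in Scnn1b-Tg medium and 30.5, 26.9 and 29.0 CPM in Scnn1b-Tg LPS. The LPS libraries lay above the medium libraries in each genotype, with a log2 change of 0.71 ± 0.13 for WT (adjusted p = 0.00146, edgeR) and 0.71 ± 0.13 for Scnn1b-Tg (adjusted p = 0.00116, edgeR). Without both WT LPS 17 and 18 the WT change was 0.44 (adjusted p = 0.0683). The interaction was 0.00 ± 0.18, with a 95% interval from -0.40 to 0.40.

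Tirap, which bridges TLR4 to MYD88 at the plasma membrane (chromosome 9, 35184551 to 35200291, minus strand), was 24.2, 25.6 and 29.6 CPM in WT medium and 34.4, 48.5 and 31.0 CPM in WT LPS, and 24.3, 27.4 and 21.3 CPM in Scnn1b-Tg medium and 37.7, 34.1 and 32.3 CPM in Scnn1b-Tg LPS. LPS libraries stood above medium libraries in both genotypes, by little in WT 18, where the change within the pool was 0.07 on the log2 scale. The log2 change was 0.51 ± 0.16 in WT (adjusted p = 0.0335, edgeR) and 0.51 ± 0.16 in Scnn1b-Tg (adjusted p = 0.0292, edgeR). The WT call was lost without WT medium 16 (0.43, adjusted p = 0.122), WT medium 17 (0.47, adjusted p = 0.109) or WT LPS 17 (0.31, adjusted p = 0.122). The Scnn1b-Tg call was lost without Tg medium 17 (0.47, adjusted p = 0.105), Tg medium 19 (0.43, adjusted p = 0.106), Tg LPS 17 (0.46, adjusted p = 0.099) or Tg LPS 18 (0.51, adjusted p = 0.0669).

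Ticam2, which links TLR4 to TICAM1 in endosomes, went the other way. It was 46.5, 55.5 and 45.1 CPM in WT medium and 34.5, 42.1 and 33.7 CPM in WT LPS, and 60.5, 50.2 and 55.3 CPM in Scnn1b-Tg medium and 44.2, 40.5 and 36.5 CPM in Scnn1b-Tg LPS. In both genotypes all LPS libraries were below all medium libraries. Within pools the log2 change ran from -0.43 to -0.40 in WT and, less evenly, from -0.60 to -0.31 in Scnn1b-Tg. The log2 change was -0.41 ± 0.10 in WT (adjusted p = 0.00801, edgeR) and -0.45 ± 0.10 in Scnn1b-Tg (adjusted p = 0.00384, edgeR). With only the libraries compared in the fit the WT call was lost (-0.39, adjusted p = 0.0503, edgeR). Ticam2 (chromosome 18, 46557291 to 46574533, minus strand) shares 838 exon bases, 14.5% of its exon length, with Tmed7 on the same strand, a cargo receptor gene that was not called (-0.10 in WT and -0.06 in Scnn1b-Tg).

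The transcript balance of the bridging adaptors, Ticam2 for the endosomal branch and Tirap for the surface branch, shifted with LPS. Per kb, the ratio of Ticam2 to Tirap ran from 1.30 to 1.85 in WT medium and from 0.739 to 0.925 in WT LPS, and from 1.56 to 2.21 in Scnn1b-Tg medium and from 0.96 to 1.01 in Scnn1b-Tg LPS. Medium and LPS libraries did not overlap in either genotype. The ratio of Ticam1 to Myd88 rose in mean, from 0.123 ± 0.00591 to 0.159 ± 0.024 in WT and from 0.133 ± 0.0102 to 0.147 ± 0.0166 in Scnn1b-Tg, with libraries of the latter overlapping. These ratios are given without a test.

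The windows before the annotated start sites of Myd88 and Ticam1, which rose, and of Irak1, which fell, are printed so that their letters can be read beside these changes. They are the 250 bases before each RefSeq start site (GRCm38.p6, the mm10 assembly), which the RefSeq table gave for 6 of the 10 genes, in 8 windows, and not for Tlr4, Cd14, Ly96 and Ticam2. Capitals mark matches, on either strand, to a kappaB motif, the interferon-response motif (TTTC, any 2 bases, TTTC), the AP-1 motif TGANTCA and the PU.1 core GAGGAA. The Myd88 window is chr9:119340019-119340268 (minus strand), that of Ticam1 chr17:56276768-56277017 (minus strand) and that of Irak1 chrX:74023919-74024168 (minus strand). Start sites differ between annotations: as GENCODE M21 draws Myd88, 1 transcript starts further upstream, so that the whole window lies within the gene, and the last bases of the Myd88 and Ticam1 windows overlap an annotated exon.
Myd88: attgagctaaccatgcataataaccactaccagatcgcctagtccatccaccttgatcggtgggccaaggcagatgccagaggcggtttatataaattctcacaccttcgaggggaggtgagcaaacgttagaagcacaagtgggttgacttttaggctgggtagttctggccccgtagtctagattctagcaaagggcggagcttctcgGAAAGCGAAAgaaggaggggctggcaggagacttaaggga
Ticam1: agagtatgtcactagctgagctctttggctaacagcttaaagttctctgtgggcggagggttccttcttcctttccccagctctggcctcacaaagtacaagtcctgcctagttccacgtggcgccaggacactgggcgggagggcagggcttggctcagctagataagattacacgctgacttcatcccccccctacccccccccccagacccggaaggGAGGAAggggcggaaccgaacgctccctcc
Irak1: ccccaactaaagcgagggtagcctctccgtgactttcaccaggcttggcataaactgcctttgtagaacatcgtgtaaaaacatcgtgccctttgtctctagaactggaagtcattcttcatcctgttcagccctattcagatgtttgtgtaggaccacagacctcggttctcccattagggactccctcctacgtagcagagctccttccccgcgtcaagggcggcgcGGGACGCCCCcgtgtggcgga

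The Myd88 window held an interferon-response match that begins 40 bases before the start site, a motif found in 2.98% of 32851 RefSeq windows of this length. The Ticam1 window held a PU.1 core that begins 30 bases before the start, as 23.3% of windows do, and Traf6 held 2 such cores, 161 and 106 bases before the start. Irak1 held a kappaB match that begins 21 bases before the start, a motif in 7.25% of windows. Neither Tirap window, nor that of Irak4, held any of the 4 motifs, and none of the 8 windows held the AP-1 motif, present in 6.75% of all windows. A match is a description of the letters and was not tied to any measured binding here.

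Below the adaptors, Irak1 was called lower in both genotypes, Irak4 was called lower in Scnn1b-Tg and Traf6 was called higher in WT. Each of these changes was less than 0.4 on the log2 scale. Irak1, the kinase that is itself degraded after activation (chromosome X, 74013914 to 74023918, minus strand), ranged from 83.6 to 89.7 CPM in WT medium and 64.8 to 72.4 CPM in WT LPS, and from 81.3 to 89.0 CPM in Scnn1b-Tg medium and 67.1 to 75.9 CPM in Scnn1b-Tg LPS. No library of LPS reached the lowest of medium in either genotype. The log2 change was -0.32 ± 0.08 in WT (adjusted p = 0.00969, edgeR) and -0.25 ± 0.08 in Scnn1b-Tg (adjusted p = 0.0251, edgeR), and the latter call was lost without Tg medium 17 (-0.26, adjusted p = 0.0756), Tg medium 19 (-0.22, adjusted p = 0.101), Tg LPS 17 (-0.25, adjusted p = 0.0808) or Tg LPS 18 (-0.21, adjusted p = 0.10).

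Irak4, the kinase that starts the cascade on MYD88 (chromosome 15, 94543643 to 94581815, plus strand), ranged from 40.6 to 45.9 CPM in WT medium and 32.9 to 43.6 CPM in WT LPS, which overlap. In Scnn1b-Tg it ranged from 44.8 to 47.0 CPM in medium and 33.5 to 39.6 CPM after LPS, with no overlap. The log2 change was -0.19 ± 0.10 in WT (adjusted p = 0.156, edgeR) and -0.35 ± 0.10 in Scnn1b-Tg (adjusted p = 0.0143, edgeR). The genotypes were not shown to differ in this, as the interaction was -0.15 ± 0.14 (adjusted p = 0.96, edgeR). The WT change was called without WT LPS 17 (-0.30, adjusted p = 0.0309), and the Scnn1b-Tg call was lost without Tg medium 18 or Tg LPS 18 (-0.32, adjusted p = 0.0543, in each case).

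Traf6, on chromosome 2 (101678429 to 101701669, plus strand), rose within all 6 pools, by 0.28 to 0.48 on the log2 scale in WT and 0.29 to 0.35 in Scnn1b-Tg, although medium and LPS libraries overlapped in each genotype. Its WT libraries held 28.5 to 41.0 CPM without and 39.4 to 52.5 CPM with LPS, and its Scnn1b-Tg libraries 29.0 to 38.1 CPM without and 35.5 to 48.7 CPM with LPS. The log2 change was 0.37 ± 0.13 in WT (adjusted p = 0.0432, edgeR) and 0.32 ± 0.13 in Scnn1b-Tg (adjusted p = 0.0717, edgeR). As for Irak4, the genotypes were not shown to differ, with an interaction of -0.06 ± 0.18 (adjusted p = 0.995, edgeR). With the pool as a block the Scnn1b-Tg change was also called (0.32, adjusted p = 0.0057, edgeR). The WT call lay close to the threshold and was lost under 11 of 23 alternatives, among them leaving out WT medium 16 (0.30, adjusted p = 0.147), WT medium 18 (0.36, adjusted p = 0.094), WT LPS 17 (0.28, adjusted p = 0.156) or WT LPS 18 (0.33, adjusted p = 0.149), or any of Tg medium 17, 18 and 19 and Tg LPS 17 (0.37 in each case, adjusted p = 0.0627, 0.056, 0.0532 and 0.0592). The Scnn1b-Tg change was called without WT LPS 16 (0.33, adjusted p = 0.0294).

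Between the genotypes, Cd14 in medium was thus the single call. After LPS 0 of the 10 genes were called by edgeR, where 0.051% of all genes tested were called. At an unadjusted p under 0.05 there was 1 of the 10, Tlr4, beside 7.12% of all genes, and DESeq2 also called 0. For 0 of the 10 were the libraries of the genotypes apart after LPS, as they were for 9.11% of all genes. In the interaction 0 of the 10 were called by edgeR, where 0% of all genes were called, with 2 at an unadjusted p under 0.05 (Cd14 and Myd88, beside 5.95% of all genes) and 1 call by DESeq2 (Cd14). For the remaining genes the 95% intervals bound what could have been missed: for Ticam1, Irak1, Irak4 and Traf6 they lay within -0.31 to 0.37 on the log2 scale in both genotype comparisons, for Tirap within -0.47 to 0.27, and for Ly96 within -0.81 to 0.38. Ticam2 had the same sign throughout, higher in Scnn1b-Tg by 0.24 ± 0.10 in medium and 0.20 ± 0.10 after LPS, and was not called (adjusted p = 0.345 and 0.773, edgeR).

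**Figure D4:**
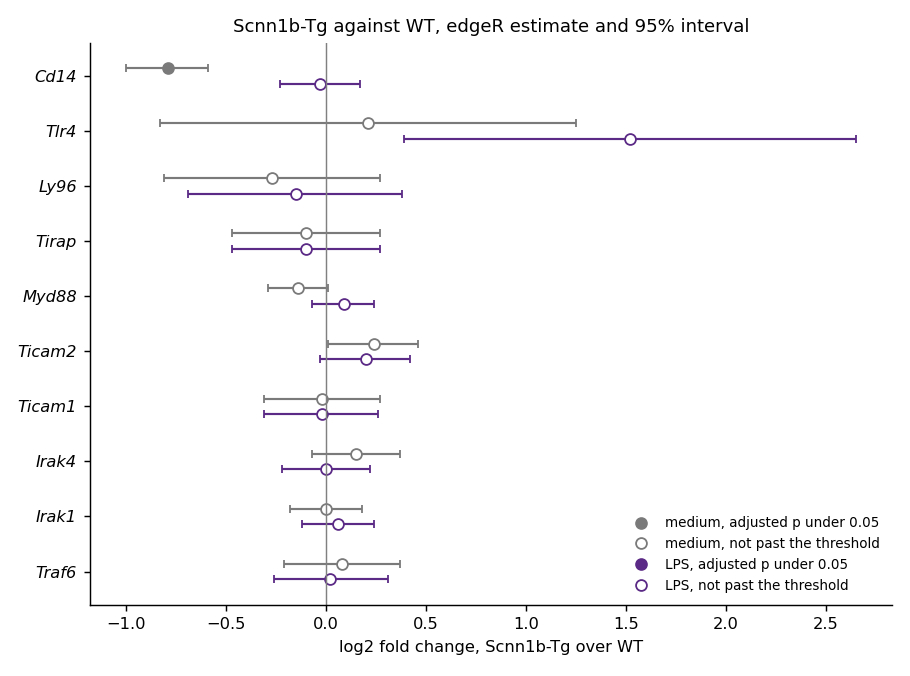
Log2 fold change of each gene in Scnn1b-Tg over WT (x axis) in medium (grey) and after LPS (purple), with 95% intervals from edgeR; the filled point passed an adjusted p of 0.05. Cd14 in medium, at -0.79, is the filled point, and Tlr4 after LPS, at 1.52 with an interval from 0.39 to 2.65, is the widest departure that was not called.

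Around these 10 genes, 53 other genes of the pathway were listed in 3 groups, and 50 of them passed the filter. The lists were chosen with earlier results of these data known. The shares called in them, set beside those of all genes, are therefore a description and not a test. With LPS 25 of the 50 were called in WT (16 higher, 9 lower), where 15.5% of all genes tested were higher and 16.2% lower. In Scnn1b-Tg 27 were called (17 higher, 10 lower), where 19.3% of all genes were higher and 18.7% lower. Their median log2 change was 0.12 in WT and 0.08 in Scnn1b-Tg, beside 0.003 and -0.015 over all genes tested.

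The coreceptors and chaperones that bring Toll-like receptors to the membrane had 0 higher and 3 lower of 11 tested in WT and 1 higher and 4 lower in Scnn1b-Tg. That is 27.3% called in WT, beside 31.8% of all genes tested, and 45.5% in Scnn1b-Tg, beside 38.1%. Of these, 3 were lower in both genotypes. Ly86 (MD-1), the partner of the TLR4 relative CD180 and thus the counterpart of MD-2, changed by -1.52 ± 0.17 (log2) in WT cells and by -2.27 ± 0.17 in Scnn1b-Tg cells (adjusted p = 4.3e-05 and 1.34e-06, edgeR). Unc93b1, which escorts endosomal Toll-like receptors, fell by 0.54 and 0.66, and Cnpy3, a chaperone of TLR4 and other Toll-like receptors, fell by 0.26 and 0.33 on the log2 scale (adjusted p = 0.0114 and 0.00239 for Cnpy3, edgeR).

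Downstream of the adaptors 12 of 23 genes were called in each genotype, 10 higher and 2 lower, and these were the same 12 genes (52.2%, beside 31.8% and 38.1% of all genes). Traf1, a TRAF protein without ligase activity, had the largest log2 change of this list, 6.99 ± 0.27 in WT and 7.02 ± 0.26 in Scnn1b-Tg (adjusted p = 2.03e-08 and 1.4e-08, edgeR). The ligases of the Pellino family split, with Peli1 at 1.79 and 1.96 and Peli2 at -1.46 and -1.98 on the log2 scale, all called. Ikbke, a kinase of the interferon branch, rose by 1.36 and 1.66 on the log2 scale (adjusted p = 5.23e-06 and 7.9e-07, edgeR).

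Among genes known to restrain the pathway 10 of 16 tested were called in each genotype, 6 higher and 4 lower (62.5%, beside 31.8% and 38.1% of all genes). Socs1, a suppressor of cytokine signalling, rose by 2.64 ± 0.17 and 3.07 ± 0.17 on the log2 scale, and Tnfaip3 (A20), which removes ubiquitin chains from TRAF6 and its partners, rose by 2.36 ± 0.28 and 2.67 ± 0.29. Irak3 (IRAK-M), the kinase-like protein that blocks the IRAK complex, rose by 2.08 ± 0.17 and 2.35 ± 0.17 on the log2 scale. Cd300a, an inhibitory receptor, fell by 2.14 and 2.27 (adjusted p = 1.1e-08 and 4.61e-09, edgeR). Within the IRAK family, then, Irak3 rose while Irak1 fell.

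No gene of the 3 lists was called between the genotypes by edgeR. In medium 12 of the 50 had an unadjusted p under 0.05, a level that 13.4% of all genes tested reached, and after LPS 3 did, beside 7.12% of all genes. DESeq2 called 8 of the 50 in medium, with the largest log2 differences in Irak2 (0.89), Traf3 (-0.71) and Peli2 (0.71), and 1 after LPS (Cd36, -0.41), and it called 501 and 146 of all genes where edgeR called 46 and 7. In the interaction 4 of the 50 had an unadjusted p under 0.05, beside 5.95% of all genes, and neither edgeR nor DESeq2 called any.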

How the data were processed

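Gene counts as deposited by the authors were used: reads were aligned to mm10 with HISAT2 without regard to strand, quantified with StringTie against GENCODE M20 and converted from coverage to whole-number estimated counts, so 1 read can be worth more than 1 count. Symbols, exon lengths and positions came from GENCODE M21. Reads from overlapping genes cannot be told apart: Myd88 shares 11.3% of its exon bases with Acaa1a, Tirap 9.05% with Gm39318, Irak4 7.87% with Twf1 and Ticam2 14.5% with Tmed7. Tirap also shares 0.791% with Srpr, which rose with LPS by 0.77 in WT and 0.85 in Scnn1b-Tg on the log2 scale (adjusted p = 4.3e-05 and 1.4e-05, edgeR). What these overlaps add to the counts was not tested.

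In R 4.3.3, genes were filtered with edgeR 4.0.16 (filterByExpr, minimum count 10, minimum total 15) and scaled by TMM. A quasi-likelihood model with group and batch was fitted to all 12 libraries, with two-sided tests and Benjamini-Hochberg adjustment at 0.05. Log2 CPM for pools took a prior count of 2. Alternatives used DESeq2 1.42.0, limma 3.58.1 (voom), other scalings and filters, and left out each library in turn. The fit was also run on simulated counts that held no batch or pool effect. Its outcome is not given here, and it cannot show how the fit handles those effects.

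Members and pathway lists were chosen with earlier results of these data known. Named pathway genes were the up to 4 largest mean changes per list among genes called in both genotypes in 1 direction with a mean of at least 5 CPM. Medium and LPS libraries of a pool come from the same animals and deviated together (r = 0.14 to 0.34 in all 6 pools), although not once the batch was removed (-0.24 to 0.15). WT and Scnn1b-Tg libraries of the same number, batch and treatment, from different animals, had r of 0.11 to 0.26 before that removal. The values within pools therefore do not single out the shared animals. The summed level of 1 further marker list is not reported here.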

Additional observations from a re-analysis of the deposited data

How the results depend on the processing

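Directions of called genes held: of 1140 values of single genes under 23 alternatives (22 for the interaction), 1056 kept direction and side of the threshold, 38 lost a call, 10 gained one, and 36 changed sign, 0 of these for a called gene. Each group has 3 libraries, and calls near the threshold moved with single libraries. Blocking on the pool left 8 of the 10 genes called in WT with LPS and gave 8 in Scnn1b-Tg, where Traf6 was added (adjusted p = 0.0057 in edgeR with a fixed block, 0.0176 with voom and pool correlation 0.327). It changed no other call. Blocking on the replicate number for the genotype comparisons left Cd14 in medium called (-0.73, adjusted p = 0.0158). The causes of the shifts below were not tested.

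Of the 10 genes, the calls with LPS in WT were 3 when only the libraries compared were fitted and 5 without WT LPS 17 and 18 together, an alternative added after seeing the data, and 6 to 8 when single libraries were left out. Those in Scnn1b-Tg were 4 (without Tg LPS 18) to 8 when single libraries were left out, and 9 both with only the libraries compared and without WT LPS 17 and 18 together. In medium, calls between genotypes were 0 without the batch term and 0 to 1 over single libraries left out. After LPS they were 0 to 1, and in the interaction 1 with DESeq2. Of the 50 pathway genes, calls between genotypes in medium were 8 with DESeq2, 1 with upper-quartile factors (Ikbkg), 1 among genes of a mean of at least 50 counts (Ikbkg), 2 with counts divided by 5 (Ikbkg and Peli2) and 1 with only the libraries compared (Irak2), and after LPS 1 with DESeq2 (Cd36).

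The sign changes all concerned small differences that were not called. Without the batch term the Scnn1b-Tg to WT difference in medium was -0.03 for Tlr4 and -0.02 for Traf6, and after LPS 0.06 for Cd14, 0.04 for Ly96 and -0.07 for Traf6. With the replicate number as a block it was 0.01 for Ly96 and -0.06 for Traf6 in medium, and 0.03 for Cd14, -0.01 for Irak1, 0.09 for Ly96 and -0.12 for Traf6 after LPS. Without WT LPS 17 and 18 together Ticam1 after LPS was 0.25, and the interaction was -0.10 for Ly96, 0.12 for Ticam2 and 0.21 for Traf6. When single libraries were left out, the values of genes that changed sign ranged in medium -0.44 to 0.01 for Ly96, -0.08 to 0.05 for Ticam1 and -0.20 to 0.08 for Tirap, after LPS -0.13 to 0.03 for Cd14, -0.29 to 0.08 for Ly96, -0.13 to 0.10 for Ticam1, -0.27 to 0.09 for Tirap and -0.08 to 0.11 for Traf6, and in the interaction -0.20 to 0.29 for Ly96, -0.11 to 0.04 for Ticam2 and -0.18 to 0.04 for Traf6.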
